A study of Mus musculus with 26 samples.

Results

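The genes described here are the secreted Wnt ligands, their Frizzled receptors and the Dkk and Sfrp antagonists of the mouse. They were chosen by symbol among the protein-coding genes of the GRCm38.p6 gene table, as every gene named Wnt, Fzd, Dkk or Sfrp with its number and, for Wnt, its letter. The rule found 37 of 21883 protein-coding genes: 19 ligands, 10 receptors and 8 antagonists, the last made of 4 Dkk and 4 Sfrp genes. The values are ATAC-seq peaks, places where the Tn5 transposase could reach the DNA, and a peak was given to a gene when it touched the gene span or the 20 kb on either side.

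Chromatin accessibility was mapped in pluripotent cells of the mouse, from 50000 cells per library, and 1 peak list was deposited for each of 26 libraries. The main comparisons used 18 libraries in groups of 3. They were EpiSCs in AF medium at passage 22 (AF), 2 groups of EpiSCs in AFX medium at passages 14 and 16 (AFX1 and AFX2), 2 groups of formative stem cells in A3XR medium at passages 21 and 29 (FS1 and FS2), and passage-16 ES cells kept in 2iL (ES). An Rd2 set of 8 further libraries held ES cells at passage 33 (2 libraries), EpiLCs induced from ES cells for 2 days in AF with KSR and sorted for low GFP (4 libraries), and EpiSCs in AFX at passage 16 (2 libraries). The labels name no strain, sex or genotype for the first 18 libraries. Titles of the Rd2 set begin with WT and the source of its ES cells is given as Rd2GFP, with no further account of the GFP reporter. Each group has 1 passage number and the labels describe no separate cultures within it, so a group may be 1 culture, p-values measure only the spread between these libraries, and line, passage and medium cannot be told apart.

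As background, EpiSCs represent the primed pluripotency of the post-implantation epiblast, ES cells in 2iL the naive pluripotency of the pre-implantation epiblast, and formative cells a stage between them. AF medium holds activin and FGF2, and AFX adds XAV939, a tankyrase inhibitor that stabilises Axin and so dampens Wnt signalling. A3XR also contains XAV939, whereas the 2i inhibitors include a GSK3 inhibitor, which stabilises beta-catenin and so mimics a Wnt signal. Wnt proteins bind a Frizzled receptor together with Lrp5 or Lrp6. Sfrp proteins carry a Frizzled-like domain and bind Wnts outside the cell, and several Dkk proteins, Dkk1 among them, bind the Lrp co-receptors. Several of these genes are themselves targets of the pathway, and Wnt3 is needed for the primitive streak. AF is the EpiSC medium of the series without the inhibitor, which is why it was set against each of the others.

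Promoter sequences are shown first for 8 of the genes, because the clearest pattern in the data lay at gene starts. They were taken from RefSeq (GRCm38.p6), which gave a promoter window for 25 of the 37 genes, and each line is the 250 bases before the start, 5′ to 3′ on the gene's strand. Capitals mark GGGCGG or its reverse complement CCGCCC, the GC box that SP and KLF factors can bind. Matches may overlap. On the lists as deposited the first 3 promoters had a peak in nearly every library of the main comparisons. Fzd10, Fzd9, Wnt16 and Dkk1 had one in EpiSC and FS libraries but in no ES library, and Wnt2 had one in a lone library.
Fzd7, chr1:59481897-59482146, plus strand, 6 matches: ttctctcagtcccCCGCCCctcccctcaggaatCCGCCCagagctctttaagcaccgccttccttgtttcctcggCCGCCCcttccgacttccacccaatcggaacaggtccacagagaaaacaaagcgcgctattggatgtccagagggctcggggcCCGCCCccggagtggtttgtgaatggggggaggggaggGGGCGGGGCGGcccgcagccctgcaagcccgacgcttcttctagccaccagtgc
Fzd5, chr1:64737751-64738000, minus strand, 9 matches: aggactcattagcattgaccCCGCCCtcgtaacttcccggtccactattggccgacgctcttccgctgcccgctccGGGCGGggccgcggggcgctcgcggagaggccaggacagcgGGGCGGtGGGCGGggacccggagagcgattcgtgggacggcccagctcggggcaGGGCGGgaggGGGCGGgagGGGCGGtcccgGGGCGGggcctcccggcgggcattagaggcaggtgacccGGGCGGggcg
Fzd4, chr7:89404116-89404365, plus strand, 7 matches: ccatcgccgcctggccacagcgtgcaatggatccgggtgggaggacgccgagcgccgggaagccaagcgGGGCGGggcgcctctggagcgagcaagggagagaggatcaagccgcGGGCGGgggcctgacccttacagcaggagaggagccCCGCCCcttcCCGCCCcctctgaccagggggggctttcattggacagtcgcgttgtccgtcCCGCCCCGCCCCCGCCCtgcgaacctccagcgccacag
Fzd10, chr5:128600856-128601105, plus strand, 1 match: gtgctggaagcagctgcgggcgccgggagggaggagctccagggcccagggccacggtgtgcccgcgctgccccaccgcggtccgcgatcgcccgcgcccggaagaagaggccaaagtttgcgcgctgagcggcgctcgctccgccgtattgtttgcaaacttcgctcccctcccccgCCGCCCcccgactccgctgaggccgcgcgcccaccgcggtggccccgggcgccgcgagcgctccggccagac
Fzd9, chr5:135251048-135251297, minus strand, 1 match: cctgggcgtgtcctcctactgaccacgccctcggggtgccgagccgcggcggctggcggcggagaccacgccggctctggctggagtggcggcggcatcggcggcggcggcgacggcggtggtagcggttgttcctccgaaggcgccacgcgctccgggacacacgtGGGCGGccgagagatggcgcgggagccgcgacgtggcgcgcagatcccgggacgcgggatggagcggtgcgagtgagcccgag
Wnt16, chr6:22287977-22288226, plus strand, 0 matches: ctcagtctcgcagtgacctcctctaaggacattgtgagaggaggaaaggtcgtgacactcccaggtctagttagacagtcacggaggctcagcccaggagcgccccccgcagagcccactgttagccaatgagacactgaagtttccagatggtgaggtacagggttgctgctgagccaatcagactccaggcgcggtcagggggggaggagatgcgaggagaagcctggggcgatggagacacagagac
Dkk1, chr19:30549497-30549746, minus strand, 0 matches: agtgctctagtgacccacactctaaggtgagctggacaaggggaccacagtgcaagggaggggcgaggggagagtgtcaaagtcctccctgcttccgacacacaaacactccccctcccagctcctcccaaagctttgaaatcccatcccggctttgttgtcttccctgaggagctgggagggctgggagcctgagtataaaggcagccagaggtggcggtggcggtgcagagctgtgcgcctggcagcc
Wnt2, chr6:18030446-18030695, minus strand, 1 match: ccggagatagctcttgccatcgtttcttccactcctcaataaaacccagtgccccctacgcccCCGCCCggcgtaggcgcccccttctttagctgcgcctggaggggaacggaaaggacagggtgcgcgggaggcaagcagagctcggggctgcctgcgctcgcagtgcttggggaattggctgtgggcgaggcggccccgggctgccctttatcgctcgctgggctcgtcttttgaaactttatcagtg

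List length set the frame for every count. The 18 lists of the main comparisons held 8044 to 31263 peaks, with AF at 15505 to 24824, AFX at 17701 to 29575, FS1 at 23883 to 31263, FS2 at 11796 to 14147 and ES at 8044 to 10961. Read depth was not analysed here, because the lists give no counts, and whether list length reflects depth or biology was not tested. Counts are therefore given at equal list length, meaning the 8044 peaks of highest −log10 p in each list, and on the lists as deposited. The cell labels were read against fixed marker genes at equal list length. The summed peaks of 7 naive genes were 6 to 8 in ES libraries, 2 in each AF library, 2 to 4 in AFX and 1 to 3 in FS. Those of 6 formative and primed genes were 0 to 2 in ES, 7 to 9 in AF, 4 to 10 in AFX and 3 to 6 in FS. The 5 mesendoderm genes summed to 1 to 3 peaks in AF, 0 to 2 in AFX, 0 to 1 in FS and 0 to 2 in ES, and 4 fibroblast genes to 2 to 3, 2 to 4, 2 to 5 and 1 to 2, with no peak near Col1a2 or Twist2 in any of these groups. The 3 extraembryonic endoderm and 3 trophoblast genes summed to 0 to 3 peaks each over all these libraries. The part of such cells in the results was not tested.

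At equal list length, the Wnt, Frizzled, Dkk and Sfrp genes together had about as many peaks in AF as in AFX and fewer in ES. Distinct peaks near the 37 genes numbered 14, 18 and 18 in the AF libraries, a mean of 16.7 ± 2.31 (SD, n = 3). The AFX libraries had 11 to 21 with a median of 16.5 and a mean of 16.5 ± 3.56 (SD, n = 6), a range that encloses AF. The FS libraries had 12 to 16 with a mean of 13.7 ± 1.63 (SD, n = 6), and overlapped AF between 14 and 16. The ES libraries had 9, 12 and 7 with a mean of 9.33 ± 2.52 (SD, n = 3), all below the lowest AF library. The lists as deposited gave another order: 44.3 ± 12.4 in AF (n = 3), 58.5 ± 9.14 in AFX (n = 6), 62.7 ± 5.69 in FS1, 25.0 ± 8.0 in FS2 and 11.3 ± 0.577 in ES (SD, n = 3 each). FS1 and FS2 thus stood apart as deposited and overlapped at equal length, where they had 12 to 15 and 13 to 16 peaks. The sums get no test, since the genes were chosen with earlier results of these data known.

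**Figure D1:**
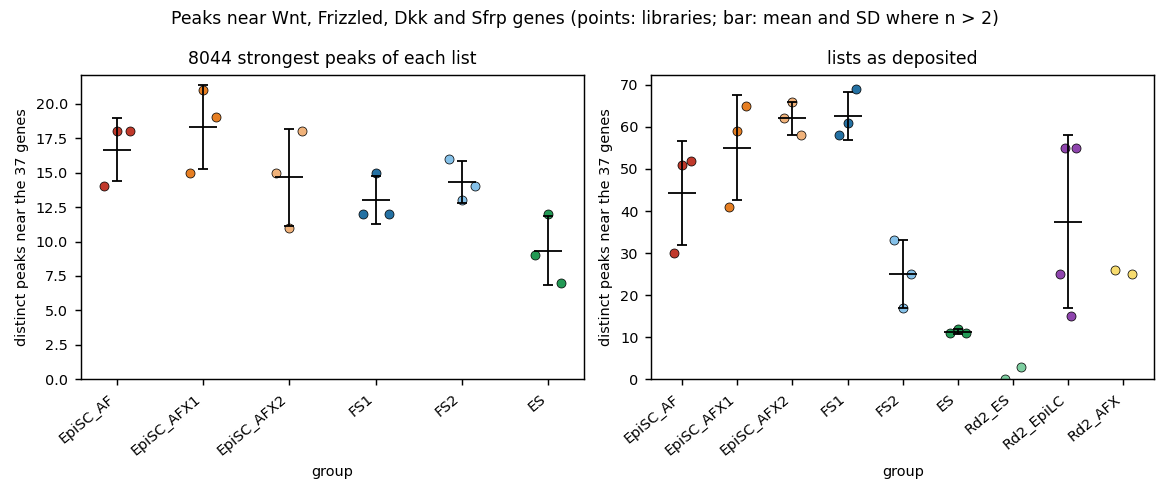
Distinct peaks within 20 kb of the 37 genes (vertical axis) by group, for the 8044 strongest peaks of each list on the left and the lists as deposited on the right; points are libraries, and bars show the mean and SD where a group has more than 2 libraries. At equal list length ES lies at 7 to 12 and AF at 14 to 18, and FS1 and FS2 separate only as deposited.

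The share of genes with at least 1 peak shows how this compares with genes at large. With lists of equal length, 45.0% ± 6.84 (SD, n = 3) of the 37 genes had a peak in AF, against 45.4% of all protein-coding genes. The shares were 45.9% in AFX against 45.4%, 37.8% in FS against 45.1%, and 25.2% in ES against 40.2%. Each of the 3 ES libraries lay below its own value for all genes, with 24.3%, 29.7% and 21.6% of the 37 against 40.5%, 40.5% and 39.5%. As deposited, all 3 ES libraries had 11 of the 37 genes (29.7%), against 40.5% to 49.2% of all genes, while the AF libraries had 67.6% to 89.2% against 64.5% to 74.8%. These shares describe the genes beside all others, without a test.

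**Figure D2:**
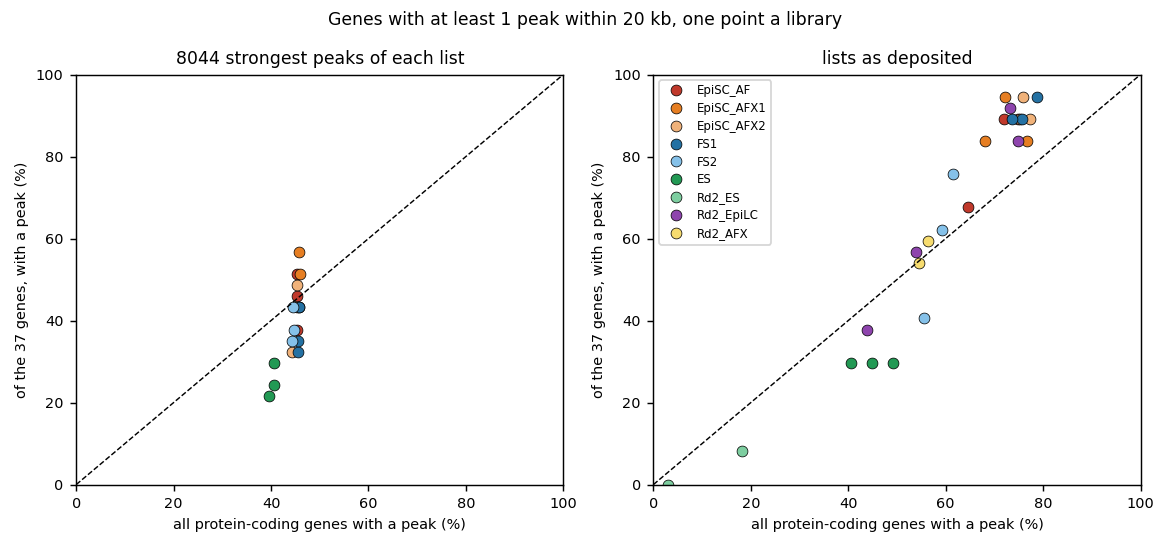
Share of the 37 genes with a peak within 20 kb (vertical axis, %) against the share of all protein-coding genes with a peak (horizontal axis, %), 1 point per library, at equal list length on the left and as deposited on the right; the dashed line marks equal shares. The ES libraries lie below the line in both panels, at 21.6% to 29.7% of the 37 genes.

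Of the 37 genes, the receptors Fzd7, Fzd5 and Fzd4 had the most constant peaks. Fzd7, a receptor with an intronless gene, was the only gene of the 37 with a peak in all 18 lists, at either list length. That peak covered its start, in a merged region at chr1:59481336-59482277, and it ranked 1027 to 1488 in the AF lists, 1156 to 2346 in AFX, 864 to 3707 in FS and 289 to 3597 in ES. These ranks overlap between all 4 cell types. Fzd5 had a start peak in 17 of 18 lists, lacking it in the second ES library, and Fzd4 in 17 of 18, lacking it in the first ES library. The Fzd5 region, chr1:64737502-64738111, ranked 870 to 1945 in AF and 5788 and 3592 in the 2 ES libraries that had it. The Fzd4 region, chr7:89403636-89404660, also covers the promoter of the neighbouring gene Tmem135, so the 2 genes cannot be separated there. The 3 promoters are GC-rich, with 66.7%, 75.7% and 72.7% G or C over the 300 bases around the start.

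The other receptors were less constant. Fzd10 had 1 peak in each AF library at equal length, 2 of 6 AFX libraries, 1 of 6 FS libraries and 1 of 3 ES libraries, and the ES peak did not reach the promoter window. Fzd9 had a start peak in 4 of 6 FS libraries and in no AF, AFX or ES library at equal length. As deposited, the Fzd9 start peak appeared in 6 of 6 FS, 5 of 6 AFX, 2 of 3 AF and 0 of 3 ES libraries. It ranked at 6004, 7703 and 17689 in FS1 and 4695, 6209 and 9446 in FS2, between 11138 and 16156 in AFX, and at 14325 and 18761 in AF. The third FS1 library thus ranked it below every AFX library that had it, and since the lists differ in length these ranks show no order between the cell types. The remaining receptors are given at equal length. Fzd1 had a peak in 2 of 3 AF, 4 of 6 AFX, 2 of 6 FS and 2 of 3 ES libraries. Fzd2 had a peak in 2 of 3 AF, 6 of 6 AFX, 3 of 6 FS and 1 of 3 ES libraries, with 3 peaks in the third AF library. Fzd8 ranged over all 4 cell types with 9 of 18 libraries. Fzd6 had a peak only in 1 AF and 3 AFX libraries, and Fzd3 in 7 libraries without any ES library. The Fzd3 peaks lie in chr14:65266228-65266810, inside the span of the neighbouring gene Fbxo16.

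**Figure D3:**
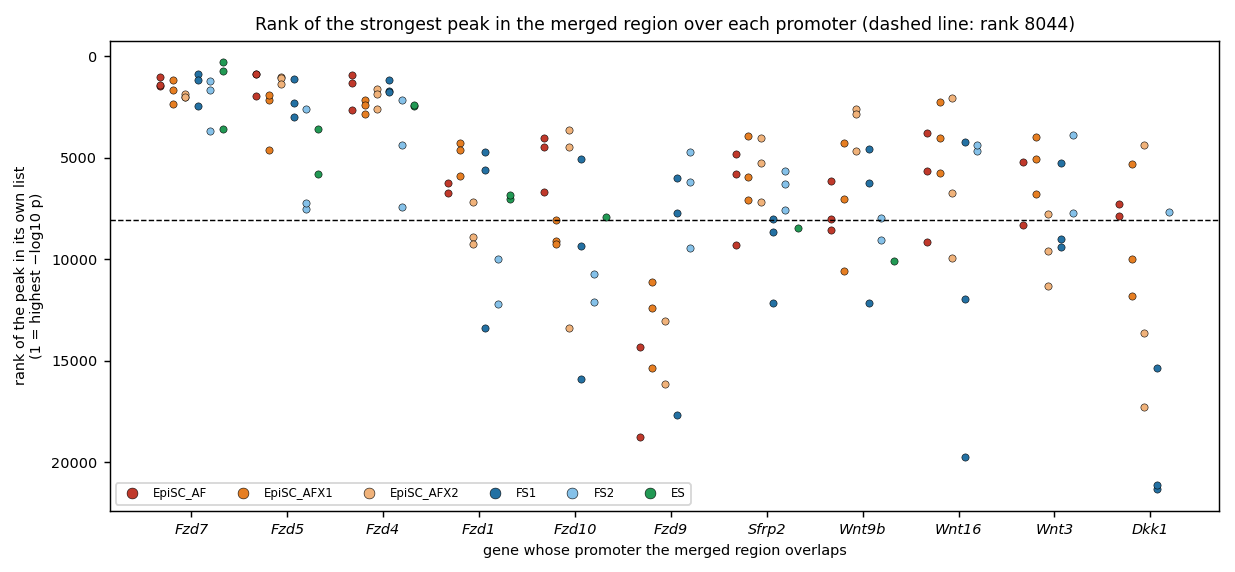
Rank of the strongest peak in the merged region over each of 11 promoters (vertical axis, 1 is the highest −log10 p of a library's own list, larger ranks lower down), with points for libraries coloured by group; the dashed line marks rank 8044. Fzd7, Fzd5 and Fzd4 lie above the line in every library that has them, and Fzd9 lies above it in FS libraries only.

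Among the ligands, the most peaks as deposited lay near Wnt5b, with 57 over the 18 lists, Wnt3a with 46 and Wnt10a with 43. The Wnt5b count came out differently at equal length, where the ES libraries had 2, 3 and 1 peaks and the AF libraries 0, 1 and 0. Of these 6 ES peaks, 4 had Adipor2, the adiponectin receptor gene next to Wnt5b, as the nearest gene. They include chr6:119417432-119417806, in the Adipor2 span, at ranks 3051 and 984 of 2 ES libraries. Of the 11 Wnt3a peaks at equal length, 9 lay in chr11:59227928-59228575, which covers the promoter of Arf1, a trafficking GTPase gene. As deposited that region had a peak in 16 lists and the region over the Wnt9a promoter, also within 20 kb of Wnt3a, in 14. At the Wnt3a promoter itself a peak appeared in 1 AFX and 1 FS library as deposited. Wnt10b, with 1 or 2 peaks in every AF, AFX and FS library at equal length, drew its count mainly from chr15:98762195-98763841 over the Arf3 promoter. Its own promoter had no peak in any of the 26 lists.

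Wnt16 and the neighbours Wnt9b and Wnt3 had peaks at their own starts. The Wnt16 promoter had a peak in 2 of 3 AF, 5 of 6 AFX and 3 of 6 FS libraries at equal length and in none of the 3 ES libraries, where it was also absent as deposited. The Wnt9b promoter, chr11:103749772-103750071, followed with 2 of 3, 5 of 6, 3 of 6 and 0 of 3. Wnt3, the streak ligand, had 1 of 3, 4 of 6, 3 of 6 and 0 of 3, and as deposited 2 of 3, 6 of 6, 5 of 6 and 0 of 3. The windows of Wnt9b and Wnt3 overlap, as do those of Wnt6 and Wnt10a, Wnt3a and Wnt9a, and Wnt10b and Wnt1, so a peak there was given to both genes. Wnt6 and Wnt10a shared chr1:74773129-74773451, inside Wnt6, with a peak in 3 of 3 AF, 6 of 6 AFX, 3 of 6 FS and 2 of 3 ES libraries at equal length. Wnt4 had a peak in 2 of 3 AF libraries and in no AFX, FS or ES library at equal length, but as deposited in all 9 AF and AFX libraries and 4 of 6 FS libraries.

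Several ligands had few or no peaks at equal length. Wnt2 had a peak in 1 of the 18 lists, FS1 replicate 1, and in 1 EpiLC list. Wnt5a had no peak at equal length and 10 as deposited, none of them in ES or FS2. Wnt8b, Wnt11, Wnt1, Wnt2b and Wnt7b had 7, 2, 1, 1 and 3 peaks over the 18 equal lists. Wnt7a had 7, none in ES. As deposited Wnt8b, Wnt11, Wnt1, Wnt2b, Wnt7b and Wnt7a had 27, 32, 20, 19, 24 and 35 peaks over the 18 lists. Depth was not given, so a gene without a peak may lie under the detection limit of its list.

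The antagonists had few strong peaks, and nearly none in ES. At equal length the 8 genes together had 2 peaks in each AF library, 1 to 5 in AFX, 0 to 3 in FS, and 0, 1 and 0 in ES. As deposited they had 4 to 11 in AF and 1 in each ES library. Sfrp2, which codes for a secreted Wnt-binding protein, had the most, with a start peak in 2 of 3 AF, 6 of 6 AFX, 4 of 6 FS and 0 of 3 ES libraries at equal length. Sfrp1 had a peak in 5 of 6 AFX, 3 of 6 FS and no AF or ES library at equal length. As deposited, Sfrp1 had 0, 3 and 3 peaks in AF and 1 to 3 in AFX, so the groups overlapped there. Dkk1, an Lrp-binding antagonist and Wnt target, had a peak in 2 of 3 AF, 2 of 6 AFX, 1 of 6 FS and 0 of 3 ES libraries, all at its start. Dkk2 had 2 of 3, 2 of 6, 2 of 6 and 0 of 3. Dkk4 had no peak in any of the 26 lists, and Sfrp4 and Sfrp5 had none at equal length.

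**Figure D4:**
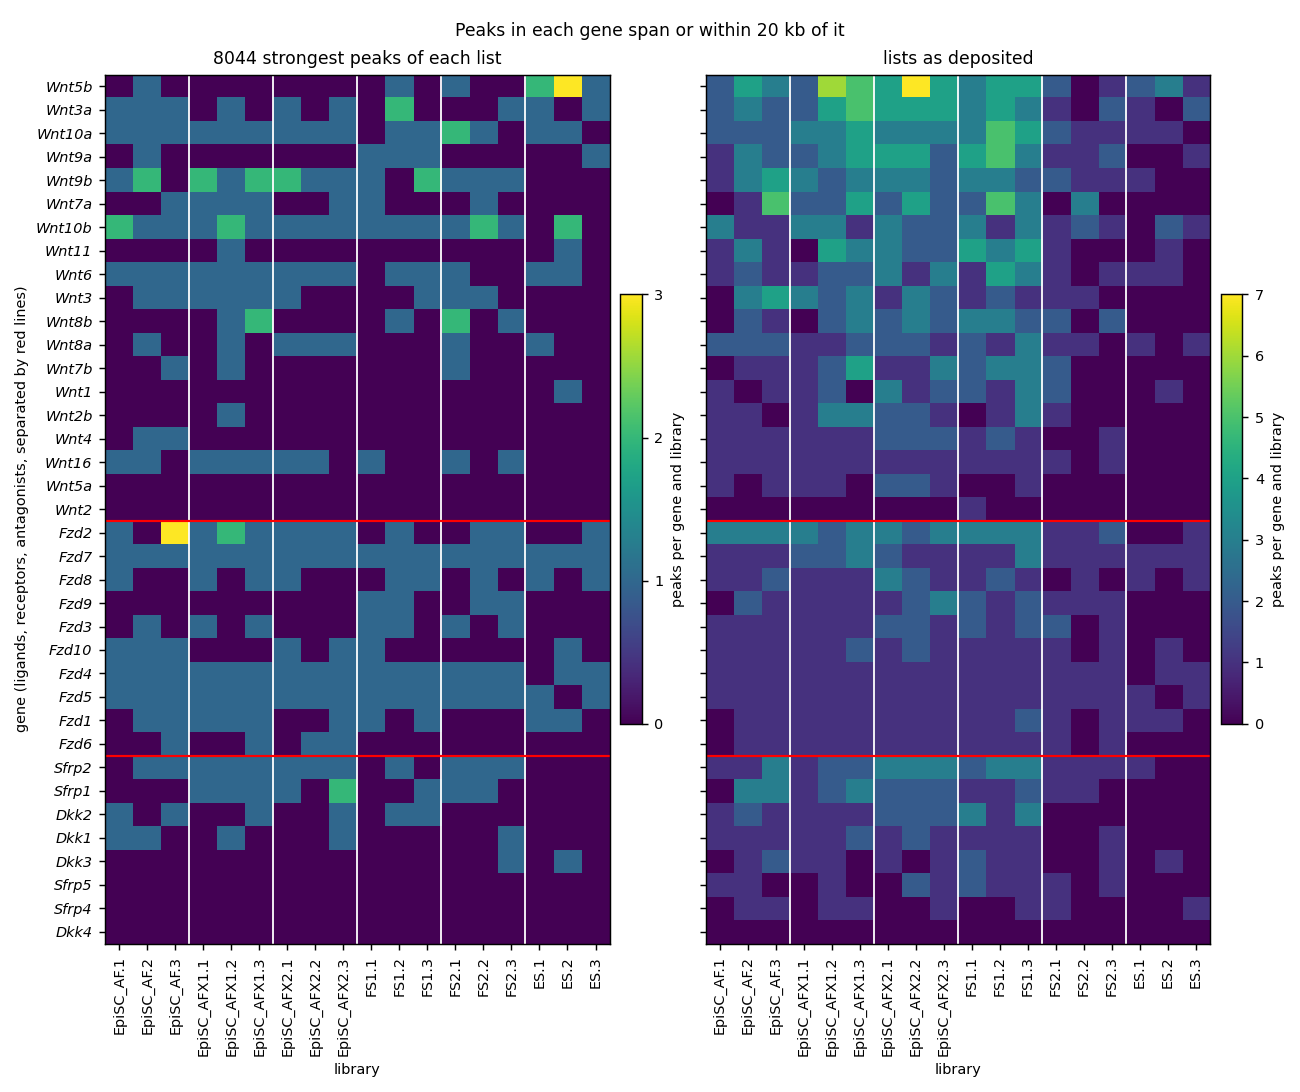
Peaks within 20 kb of each gene (rows, ordered by role and then by total as deposited) in each of the 18 libraries (columns), at equal list length on the left and as deposited on the right; colour gives the number of peaks, and the 2 scales differ. Fzd7, Fzd4 and Fzd5 are filled across nearly all columns, and the ES columns are the emptiest.

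Promoters were counted apart, since they need no 20 kb window. A promoter peak touched the 250 bases before or the 50 bases after a start. At equal length 8.33 ± 2.31 of the 25 genes with a window had a promoter peak in AF (SD, n = 3), 7.67 ± 0.816 in AFX (n = 6), 6.67 ± 1.03 in FS (n = 6) and 3.33 ± 1.15 in ES (n = 3). These are 28.0% to 44.0% of the 25 in AF, 24.0% to 32.0% in AFX and in FS, and 8.0% to 16% in ES. Among 17491 genes the means were 26.4%, 26.1%, 24.7% and 20.8%, so the ES libraries lay below the share of all genes. The AF libraries, at 28.0%, 44.0% and 28.0%, lay above it. So did every AFX library but AFX2 replicate 2, at 32.0% each, and the FS libraries lay on either side of their own shares. The 3 ES libraries had 2 to 4 of the 25, drawn from Fzd7, Fzd5, Fzd4, Fzd1, Wnt9a and Wnt5b. Of the other 19 genes, 5 (Wnt16, Wnt3, Fzd9, Fzd10 and Dkk1) had a promoter peak in at least 12 of the 18 deposited lists and in no ES list. They are 5 of the 25, against 1701 of the 17491 genes (9.73%), and the ES lists are the shortest of the 18, with 8044 to 10961 peaks. The cut of 12 lists was not planned, and Fzd10 and Dkk1 lie exactly on it. At equal length the 5 genes, in the order named, had a promoter peak in 10, 8, 4, 6 and 5 lists. None of them then reached 12, so the shares are a description of the deposited lists only.

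**Figure D5:**
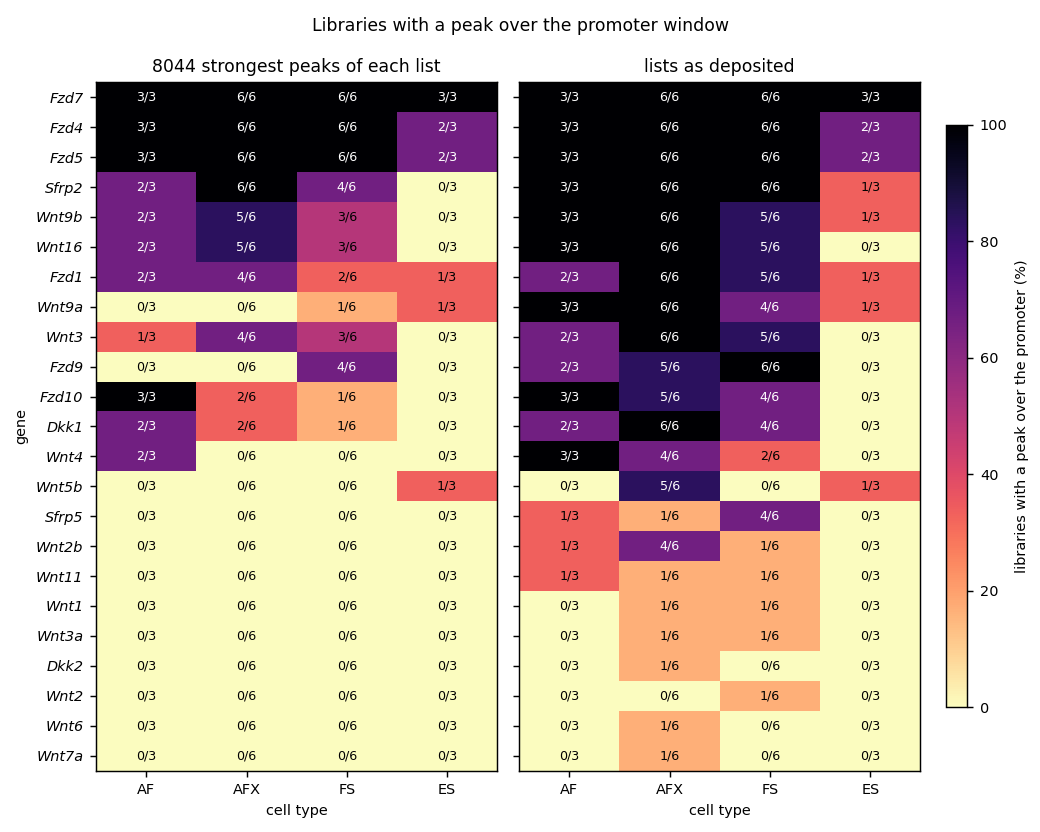
Number of libraries with a peak over the promoter window (numbers in cells; colour gives the percent of the cell type's libraries) for the 23 genes with such a peak in at least 1 list, at equal list length on the left and as deposited on the right. Fzd7 is at 3/3, 6/6, 6/6 and 3/3 in both panels, and the ES column is at 0 for 17 genes at equal length.

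The promoters are GC-rich as a group. Their 28 windows had a median of 68.7% G or C against 56.3% over all windows of the table, and a median ratio of observed to expected CpG of 0.754 against 0.567. Receptors were highest with medians of 74.2% and 0.858, then ligands with 71.0% and 0.795 and antagonists with 61.0% and 0.56. GGGCGG, read on both strands over the 300 bases, occurred in 19 of 25 genes (76.0%) against 49.2% of all genes. The constant promoters shown above carry 6 to 9 matches in 250 bases, whereas Wnt16 and Dkk1 carry none. Sfrp2, Fzd1, Wnt10b and Wnt8b also had no match over the 300 bases. The promoters of Sfrp2 and Fzd1 still had a peak in 16 and 14 lists of the main comparisons as deposited. Those of Wnt10b and Wnt8b had no peak in any list, so genes without a match went both ways. Wnt3a, with 86.3% G or C, had a promoter peak in 2 lists and Wnt7a, with 76.0%, in 1. CTTTGAT, a TCF/LEF motif, occurred in Wnt5b and Wnt11 (8.0% against 3.74% of all genes), and ATTTGCAT, the octamer, in Sfrp2 (4.0% against 1.90%). A gene counted when any of its windows matched. Wnt5b and Wnt11 are the only genes of the 25 with more than 1 window, so more sequence was searched for them. A match is a string of letters, not a bound site.

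AF against AFX asks whether the chromatin of these genes differed between EpiSCs without and with the tankyrase inhibitor. At equal list length no ligand, receptor or antagonist had all AF libraries above or all below all AFX libraries; among all genes 0.178% did so with AF higher and 0.137% with AF lower. Of the 37 genes, 10 had a higher mean in AF, 11 a lower mean and 16 an equal mean, or 27% higher and 29.7% lower against 22.3% and 25.7% of all genes. As deposited 4 were higher and 24 lower, or 10.8% and 64.9%, against 16.6% and 53.9%. At equal length the genes that came closest still overlapped between the groups. Sfrp1 had 0, 0 and 0 peaks in AF and 1, 1, 1, 1, 0 and 2 in AFX (exact permutation p = 0.119), and Wnt4 had 0, 1 and 1 against none (exact p = 0.0833). Sfrp1 had no overlap without AFX2 replicate 2, and Wnt4 none without AF replicate 1, where 0.489% and 0.663% of all genes had none. At equal length the exact permutation test, adjusted by Benjamini-Hochberg over all 21883 genes, called no gene (0.0%). There 220 genes had an unadjusted p under 0.05, with no ligand, receptor or antagonist among them. The smallest possible p of the test, 0.0119, lets few or no genes pass that adjustment. The lack of calls therefore does not show that the groups were alike. At equal length limma on log2(peaks + 1) called 40 genes (0.183%), again none of the 37. The difference in summed peaks, AF minus AFX, was 0.167, and it turned to -14.2 on the lists as deposited and to -4.17 with a −log10 q of at least 5.

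Wnt10a was the exception on the lists as deposited. It had 2, 2 and 2 peaks in AF and 3, 3, 4, 3, 3 and 3 in AFX (exact permutation p = 0.0119, the smallest possible; adjusted p = 1.0), without overlap. Among all genes 0.763% were lower in AF without overlap, 0.0457% were higher, and 1.92% had an unadjusted p under 0.05. With all 9 lists cut to 15505 peaks, the length of the shortest of them, Wnt10a had a mean of 2.0 in AF and 1.67 in AFX, so the direction turned. At that length none of the 37 genes was without overlap, against 0.283% higher and 0.192% lower among all genes. Beyond the 37, Lgr6, an R-spondin receptor gene, and Tcf7, a TCF/LEF factor gene and Wnt target, were lower in AF as deposited, as 2 of 45 other genes of the pathway (4.44%). Tcf7 had 0, 1 and 0 peaks in AF and 2 to 4 in AFX, and Lgr6 had 0 in each AF library and 1 to 4 in AFX. At equal length Tcf7 had a peak in 1 of 6 AFX libraries and Lgr6 in none.

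AF against FS compares primed EpiSCs with formative cells. No gene of the 37 was without overlap at equal length, as deposited or with the 9 lists cut to 11796 peaks. Among all genes the shares higher and lower in AF were 0.434% and 0.315%, then 0.174% and 0.196%, then 0.457% and 0.384%. Fzd10 came closest at equal length, with 1, 1 and 1 peaks in AF and 1, 0, 0, 0, 0 and 0 in FS (exact permutation p = 0.0476, adjusted p = 1.0), where 1.96% of all genes had an unadjusted p under 0.05. Without FS1 replicate 1 its groups did not overlap, and without AF replicate 1 those of Wnt4 did not, where the same held for 1.13% and 1.41% of all genes. Fzd9 went the other way when lists were cut to 11796 peaks, with 0 in each AF library and a mean of 0.833 ± 0.408 in FS (SD, n = 6; exact p = 0.0476, adjusted p = 1.0), where 1.97% of genes had an unadjusted p under 0.05. At equal length its difference had an exact permutation p of 0.167. Of the 37 genes 15 had a higher mean in AF and 7 a lower mean at equal length, or 40.5% and 18.9%, against 26.6% and 28.8% of all genes. As deposited the balance turned, with 16 higher and 18 lower, or 43.2% and 48.6%, against 37.9% and 33.4%. At equal length the exact permutation test, under the same limit of its smallest p as for AFX, called no gene (0.0%). There 430 genes had an unadjusted p under 0.05. At that length limma called 97 genes (0.443%), none of them among the 37. Of the other 45 pathway genes, Gsk3a was higher in AF without overlap at equal length, with 3 peaks in each AF library and 0 to 2 in FS. As deposited its groups overlapped (4 to 5 against 0 to 5) and Lgr6 was lower in AF, with 0 in each AF library and 1 to 3 in FS. With lists cut to 11796 peaks Lef1 was higher and Tcf7 lower.

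AF against ES compares primed with naive cells, where the medium of the latter holds the GSK3 inhibitor. Of the 37 genes, 19 had a higher mean in AF and 5 a lower mean at equal list length, or 51.4% and 13.5%, against 31.5% and 20.7% of all genes. As deposited 33 were higher and 0 lower, or 89.2% and 0.0%, against 66.7% and 5.67%. At equal list length none of the 37 was without overlap, while 5.94% of all genes were higher in AF and 2.18% lower. The mean difference in peaks per gene was there 0.198 for the 37 and 0.118 for all genes, with medians of 0.333 and 0.0. With 3 against 3 libraries the exact permutation test cannot go below p = 0.1, so it could call no gene (0.0%). At equal list length limma called 1294 genes (5.91%), none of them among the 37. Left out in turn, 5 of the 6 libraries gave 1 to 3 genes without overlap, among them Wnt5b with ES higher when AF replicate 2 or ES replicate 3 was left out. Among all genes 10.2% to 11.8% were then without overlap.

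On the lists as deposited 8 of the 37 genes (21.6%) were higher in AF than in ES without overlap and none was lower, against 24.8% and 0.324% of all genes. The share of the 37 is thus near that of genes at large, and the AF lists are longer than the ES lists. The 8 were the ligands Wnt10a, Wnt4, Wnt16 and Wnt8a, the receptors Fzd2 and Fzd3, and the antagonists Dkk1 and Dkk2. Fzd2 differed most, with 3 peaks in each AF library and 0, 0 and 1 in ES. Dkk2 had 1, 2 and 1 against none, Wnt4, Wnt16, Fzd3 and Dkk1 had 1 in each AF library against none, Wnt8a had 2, 2 and 2 against 1, 0 and 1, and Wnt10a had 2, 2 and 2 against 1, 1 and 0. limma on these lists called 6 of them higher in AF (Dkk2, Wnt4, Wnt16, Fzd2, Fzd3 and Dkk1), where 15.7% of all genes were called in that direction. With a replicate block limma called 5 of the 37 (Wnt4, Wnt16, Wnt11, Fzd3 and Dkk1). Dkk2 (adjusted p = 0.0814) and Fzd2 (adjusted p = 0.108) were lost and Wnt11 (adjusted p = 0.00355) was gained. Wnt11 had 1, 3 and 1 peaks in AF and 0, 1 and 0 in ES, so its groups overlapped. Wnt4, Wnt16, Fzd3 and Dkk1 had no spread within either group. All of them got the same adjusted p from limma, 1.66e-06 without the block. With counts so small and tied, these limma p-values do not measure the size of a difference. Among all genes limma called 1719 higher in AF and 50 lower with the block, against 3440 and 64 without it. None of the 8 was without overlap at equal length, where the difference of Wnt8a was 0.0. Wnt4 and Dkk1 had a difference of 0.0 with a −log10 q of at least 5, and Fzd3 when only peaks nearest to it were counted. Of the other 45 pathway genes, 5 (11.1%, against 5.94% of all genes) were higher in AF without overlap at equal length: the Dishevelled genes Dvl1 and Dvl2, Gsk3a, and the transcription factor genes Lef1 and Tcf7l1. Tcf7l1, a repressor of Wnt targets in ES cells, had 3 peaks in each AF library and 2, 1 and 2 in ES, but its groups overlapped as deposited (7, 6 and 4 against 2, 1 and 4). Lef1 had 1 in each AF library and none in ES.

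Separate regions gave no sharper contrast. The peaks of the 18 lists near the 37 genes merged into 141 regions, of which 24 lay over a promoter of one of these genes and 73 touched a gene span. Of the 141 regions, 45 occurred in 1 list (31.9%), against 39.7% of all regions. A region in all 18 lists was rare near these genes, 1 of 141 (0.709%), against 4.01% of all regions. At equal list length, no region was held by all AF libraries and by none of the other cell type or the reverse, of 33 regions for AFX, 37 for FS and 34 for ES. Over the genome the shares held by AF only were 0.284% against AFX, 0.566% against FS and 5.58% against ES, and the shares held by the other cell type only were 0.116%, 0.332% and 3.34%.

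The Rd2 lists were read as deposited only, and no test was run across the sets, whose shortest peaks differ (150 bp in the first 18 lists, 110 bp in Rd2). The Rd2 ES lists held 471 and 2576 peaks and had 0 and 3 peaks near the 37 genes, 1 of them at the Fzd5 start. The 4 EpiLC lists, of 10563, 23608, 7469 and 26045 peaks, had 25, 55, 15 and 55 peaks near the genes, with 4 of 4 libraries carrying the Fzd7, Fzd5, Fzd4 and Wnt9b start peaks. Wnt16 and Dkk1, without a peak in any ES library of either set, had a start peak in 3 of 4 EpiLC libraries each, and Fzd9 in 2 of 4. The 2 Rd2 AFX lists, of 11252 and 10719 peaks, had 26 and 25 near the genes, with both libraries carrying the start peaks of Fzd7, Fzd5, Fzd4, Fzd1, Sfrp2, Wnt16, Wnt9a and Wnt9b and neither that of Fzd9 or Dkk1.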

How the data were processed

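The ATAC-seq data were 26 peak lists from the authors, 1 per library. Per the submitters' processing notes, Trim Galore, Bowtie, Picard and MACS2 were used with build mm10; versions and settings are not given in the sources used here. Each deposited peak has a fold enrichment (a ratio), a −log10 p and a −log10 q from the authors, used only to rank or filter peaks within a list. The deposited score was not used. Reads were not analysed here, so depth is unknown. Lists of unequal length hold unequal numbers of weak peaks, which moves every count.

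Gene spans came from a GRCm38.p6 table of 21883 protein-coding genes, and an overlap of 1 bp with a span or its 20 kb flanks counted. The main setting took the 8044 peaks of highest −log10 p in each of 18 lists; the lists as deposited were the alternative, and lists cut to 15505 or 11796 peaks were added after seeing the data. Per gene, libraries were compared by a two-sided exact permutation test of the difference in mean peaks (84 assignments for 3 against 6 libraries, 20 for 3 against 3), adjusted by Benjamini-Hochberg over all 21883 genes with a threshold of 0.05. Groups were without overlap when every library of one lay above every library of the other. limma 3.58.1 on log2(peaks + 1) was an alternative. Scripts were tested on simulated data.

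Genes named were those without overlap in at least 1 comparison, at equal length or as deposited, the 3 with most peaks, and those without a peak; others named in the text were chosen after their values were seen. The members and lists were chosen with earlier results of these data known. Promoter windows of 300 bp came from RefSeq for 25 genes. The promoters of Wnt10a, Dkk3, Dkk4, Sfrp1, Fzd2, Sfrp4, Wnt5a, Fzd3, Fzd6, Wnt7b, Fzd8 and Wnt8a were not analysed here.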

Additional observations from a re-analysis of the deposited data

Results flagged for a closer look

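Groups of 4 or 6 libraries were checked for a library far from the others, by the gap to its neighbour over the range (Dixon's critical values at the 95% level), for sums near the 37 genes and for genes whose counts spanned at least 2 peaks. Of 72 such checks 7 found a library, and the chance rate of about 1 in 20 holds for continuous values, not for small whole counts with ties. On the lists as deposited AFX1 replicate 1, whose list is the shortest of AFX with 17701 peaks, had 41 peaks near the 37 genes against 58 to 66 in the other AFX libraries, 2 near Wnt3a against 4 or 5, and 0 near Wnt8b against 2 or 3. FS1 replicate 3, the longest list with 31263 peaks, had 3 peaks near Fzd7 against 1 in each other FS library and 3 near Wnt2b against 0 or 1. FS2 replicate 2, the shortest FS list, had 0 near Wnt8b against 2 or 3. EpiLC replicate 2 had 2 near Wnt11 against 0 in the other 3.

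Some genes had lines of 1 cell type on opposite sides of the AF mean, and these differences were not tested. As deposited, Dkk2 had 1 peak in each AFX1 library and 2 in each AFX2 library, around an AF mean of 1.33. FS1 lay above and FS2 below AF for Sfrp2 (AF mean 1.67), Wnt11 (AF mean 1.67) and Wnt3a (AF mean 2.33), and the FS1 lists are the longer ones. At equal list length the same held for Wnt9a (AF mean 0.333), with 1 peak in each FS1 library and none in FS2.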

How the results depend on the processing

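The difference in peaks near the 37 genes, AF minus AFX, was 0.167 and turned to -14.2 on the lists as deposited and -4.17 with a −log10 q of at least 5; AF minus FS was 3.0, with 0.5 as deposited, 4.83 with a −log10 q of at least 5 and 5.67 at the length of the lists compared; AF minus ES was 7.33, with 33 as deposited, 11.3 with a −log10 q of at least 5 and 11.3 with a 50 kb window. With a −log10 q of at least 5 the AF libraries had 9, 14 and 13 peaks, FS1 11, 14 and 16, FS2 1, 0 and 1, and ES 0, 1 and 1. At that setting FS2 and ES thus lay near 0, and the positive AF minus FS came from FS2, since FS1 overlapped AF. Leaving out a library gave ranges of -0.933 to 1.5 for AFX, 2.33 to 4.33 for FS and 6.17 to 8.67 for ES. Genes of the 37 without overlap were 0 in each comparison and became 1 as deposited for AFX (Wnt10a) and, for ES, 8 as deposited, 5 with a −log10 q of at least 5, 1 with ranking by fold (Wnt9b) and 1 with a 50 kb window (Wnt3), where 0.809% of all genes for AFX and 25.2%, 24.2%, 7.0% and 11.6% for ES were without overlap. Left-out libraries gave 0 to 1 for AFX (1 without AF replicate 1 or AFX2 replicate 2), 0 to 1 for FS (1 without AF replicate 1 or FS1 replicate 1) and 0 to 3 for ES (3 without AF replicate 1 or 3, 2 without AF replicate 2 or ES replicate 2, 1 without ES replicate 3), against 0.425% to 1.02%, 0.973% to 1.63% and 10.2% to 11.8% of all genes. The exact test called 0 genes under every alternative run, and limma 40, 97 and 1294. The smallest p of the exact test was at least 0.0119 against AFX and FS and at least 0.1 against ES. Few or no genes can then pass the adjustment, so its lack of calls says nothing on how stable the result is. With a replicate block, the exact test called 0 genes in each comparison and limma 34 against AFX, 71 against FS and 936 against ES. The labels do not say whether replicate numbers pair the libraries. Deviations of same-numbered libraries correlated at -0.021 to 0.0353 over 15 pairs and those of other pairs at -0.043 to 0.0276. These ranges overlap, and with such small counts per gene the check cannot settle whether the libraries were paired. Counts per gene are small, so a change of 1 peak in 1 library can decide overlap, and depth is unknown. Except where a longer list adds weaker peaks by construction, the cause of each change was not tested.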
